A study of Mus musculus with 4 samples.

Results

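The NRF2 antioxidant genes are 10 genes of the cell's main defence against oxidants and electrophiles, and they were taken by symbol from the deposited tables. They are *Nfe2l2*, which encodes the transcription factor NRF2, its repressor *Keap1*, and the enzyme genes *Nqo1*, *Gclc*, *Gclm*, *Txnrd1*, *Srxn1*, *Gsr*, *Prdx1* and *G6pdx*. All 10 were found among the 23337 gene symbols, and all 10 passed the filter on low counts that left 18547 genes for testing. Medullary thymic epithelial cells (mTECs) were sorted as CD45-EpCAM+UEA-1+Ly51- cells from the thymus of C57BL/6 mice aged 4 weeks. Total RNA was sequenced in 4 libraries, 2 from wild type mice (WT) and 2 from mice whose genotype label reads Sirt6-/-, referred to as the libraries labelled cKO (cKO 1 and cKO 2). The latter carried *Sirt6* alleles flanked by loxP sites and *Foxn1*-Cre, which acts in thymic epithelial cells, and the controls were littermates or age-matched mice without Cre. How many mice went into a library is not given in the sources used here, so the p-values measure only the spread between these samples.

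The comparison asks how the loss of *Sirt6*, a nuclear deacetylase gene, changed the RNA of mTECs, and SIRT6 has been described as a coactivator of NRF2. Total counts per library lay between 61102704 and 65907745. *Sirt6* itself was not lower where it was labelled as deleted: it had counts of 622 and 755 in WT 1 and WT 2, against 882 and 835 in cKO 1 and cKO 2, a log2 fold change of 0.37 (SE 0.32, 95% interval -0.43 to 1.18). A count for the whole gene does not separate the deleted exons from the rest, so this value does not check the labels. The 10 mTEC markers, *Epcam* and *Aire* among them, had a count in every library and summed to between 11055 and 11471 CPM (counts relative to library size, scaled by the trimmed mean of M-values, TMM) in WT and between 12671 and 13088 CPM in the libraries labelled cKO. *H2-Aa*, an MHC class II gene that macrophages, dendritic cells and B cells also express, made up 7123 to 8228 CPM of these sums. At an unadjusted p of 0.05, 3 of the 10 (*Epcam*, *Aire* and *Cd80*) were higher and 0 lower, and *Cd80*, a costimulatory ligand of mature mTECs, had 68.9 and 70.2 CPM in WT and 123 and 144 CPM with the cKO label. Over all genes tested, 5.27% were higher and 3.32% lower at that p. Markers of other cells were also present. The 12 macrophage and dendritic cell markers, which all had a count in every library, summed to 5772 and 3349 CPM in WT and to 2182 and 2291 CPM in the libraries labelled cKO. Most of this was *Lyz2*, at 4647 and 2815 CPM in WT and 1778 and 1906 CPM with the cKO label. At that p 6 of the 12 were lower (*Emr1*, *Cd68*, *Lyz2*, *C1qa*, *C1qb* and *C1qc*). The groups overlapped in *Siglech*, *Itgax*, *Itgam*, *Mertk* and *Flt3*. The 12 thymocyte markers summed to between 805 and 1612 CPM over the 4 libraries, with 1 lower. The 7 tuft cell markers summed to 549 and 633 CPM in WT and to 302 and 303 CPM in the libraries labelled cKO. At that p 4 were lower (*Trpm5*, *Gnb3*, *Gnat3* and *Avil*), and the median log2 fold change was -0.99. *Gnb3* made up much of the sums, at 278 and 319 CPM in WT and 106 and 119 CPM with the cKO label. *Pou2f3* (38.4 and 44.2 CPM in WT, 53.0 and 44.7 CPM with the cKO label) went the other way. So did the mean of *Dclk1* (19.7 and 32.9 CPM in WT, 30.9 and 36.4 CPM with the cKO label). The 7 markers of cortical epithelium summed to between 417 and 694 CPM, with 2 higher. In bulk RNA fewer cells of a type and less RNA per cell cannot be told apart. The sums of the 6 fibroblast, 5 B cell, 5 endothelial and 4 erythroid markers were at most 701 CPM, and 1 of these markers was lower.

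In the resting cell KEAP1 binds NRF2 and hands it to a CUL3 ubiquitin ligase, so that NRF2 is degraded almost as fast as it is made. Oxidants and electrophiles modify cysteines of KEAP1, NRF2 then accumulates, pairs with a small MAF protein and binds antioxidant response elements near its target genes. The targets make and recycle glutathione, reduce thioredoxin and peroxides, detoxify quinones and supply NADPH. Because this control acts on the protein, the RNA of *Nfe2l2* and *Keap1* reports how much message was present and not how active NRF2 was.

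The element through which NRF2 acts can be read from the promoters. In RefSeq promoter windows on GRCm38.p6, which run from 250 bases before to 50 bases after a transcription start, the core TGACNNNGC was searched on both strands. Of the 10 genes, 8 matched a window (not *Gclc* or *Gsr*), and 6 of these 8 held the core, against 14.0% of all 27025 genes with a window and 12.4% of all 32851 windows. The genes had been chosen as NRF2 genes, so this share is a description, and a match is not a shown binding site. Of the 98 other genes of the NRF2 system examined below, 85 matched a window. The core was held by 15 of these 85 (17.6%), a share near that of all genes. The 6 matches are shown because they are the words of the NRF2 type in the windows of the genes measured here. Each is written 5′ to 3′ along its gene (minus strand for *G6pdx* and *Nfe2l2*, plus strand for the others) with the 9 bases of the core in capitals. In *Gclm*, *Prdx1*, *Txnrd1*, *Srxn1* and *G6pdx* the core lies on the strand opposite to the gene, so that the capitals show its reverse complement.
*Gclm*, chr3:122245413-122245441: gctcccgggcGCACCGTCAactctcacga
*Prdx1*, chr4:116685456-116685484: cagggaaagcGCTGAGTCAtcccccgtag
*Txnrd1*, chr10:82859104-82859132: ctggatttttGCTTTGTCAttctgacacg
*Srxn1*, chr2:152105542-152105570: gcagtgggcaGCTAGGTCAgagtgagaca
*G6pdx*, chrX:74428919-74428947: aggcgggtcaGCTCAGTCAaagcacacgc
*Nfe2l2*, chr2:75704885-75704913: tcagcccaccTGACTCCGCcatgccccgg
The first base of the capitals lay 134 bases before the start in *Gclm*, 133 in *Prdx1*, 92 in *Txnrd1*, 57 in *G6pdx* and 240 in *Nfe2l2*, and at base 29 after the start in *Srxn1*. The *Txnrd1* match belongs to 1 of 3 annotated starts, which lies inside the gene. In *Prdx1* the core, read on its own strand as TGACTCAGC, also holds the AP-1 word TGANTCA, which 7.81% of all windows hold. The windows of *Keap1* and *Nqo1* do not hold these letters.

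The quasi-likelihood test of edgeR called 0 of the 10 genes at an unadjusted p of 0.05, where it called 8.58% of all genes tested, and 0 at an adjusted p of 0.05, where it called 0.00539%. DESeq2 also called 0 of the 10 at both thresholds, against 10.2% of the genes it tested at the unadjusted p (5.8% higher, 4.38% lower) and 1.83% at the adjusted p (1.03% higher, 0.795% lower). The log2 fold changes of the libraries labelled cKO over WT ran from -1.16 for *Gclm* to 0.42 for *Keap1*, with 5 genes above and 5 below 0, where 49.6% of all genes lay above 0. Their median was 0.12, beside a median of -0.0047 over all genes tested. With cKO 2 left out the median was -0.21 and *Gclm* passed the unadjusted p, which made 1 gene; without WT 2 the median was -0.052. The groups did not overlap in 4 of the 10 genes, of which *Nfe2l2*, *Keap1* and *G6pdx* (3 genes) were higher with the cKO label and *Gclm* (1 gene) was lower. Such a gap was present in 41.9% of all genes tested (21.6% higher, 20.3% lower).

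**Figure D1:**
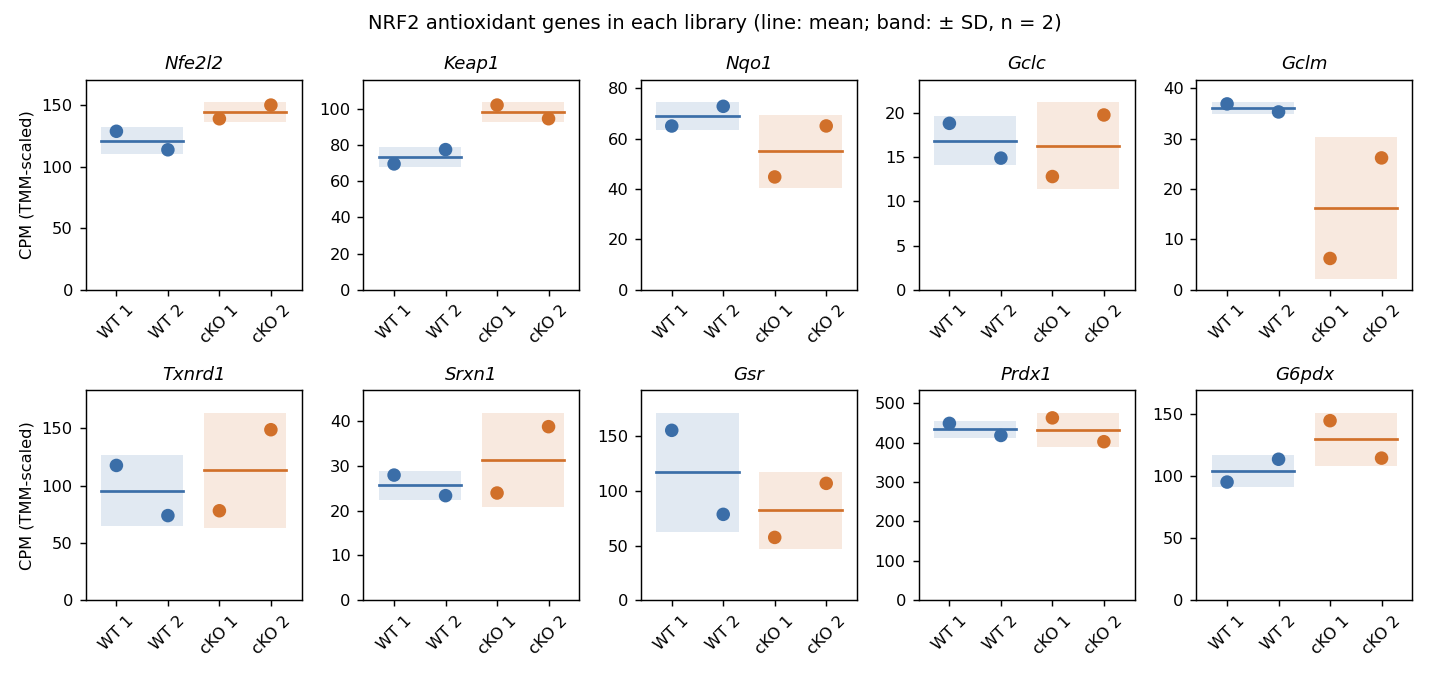
Level of each of the 10 genes in each of the 4 libraries, in CPM on linear axes that start at 0, with WT in blue and the libraries labelled cKO in orange. Lines are means and bands are ± SD of 2 libraries; the orange points of *Gclm* (6.21 and 26.2 CPM) lie far apart, and those of *Keap1* lie together above both blue points.

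Both regulators had higher means in the libraries labelled cKO, and neither passed the test. *Nfe2l2*, on chromosome 2 from 75675513 to 75704641 of GRCm38, the assembly of mm10, had counts of 8438 and 7245 in WT 1 and WT 2, against 8394 and 9636 in cKO 1 and cKO 2. The means were 121 ± 10.7 CPM in WT and 145 ± 7.89 CPM in the libraries labelled cKO (SD, n = 2), and the lowest library labelled cKO lay above the highest WT library. The log2 fold change of 0.25 (SE 0.18, 95% interval -0.21 to 0.71) did not pass the test (adjusted p = 0.753 by edgeR), and the groups overlapped with upper quartile scaling. *Keap1*, the adaptor that holds NRF2 down, lies on chromosome 9 from 21229730 to 21239361. It had counts of 4548 and 4925 in WT 1 and WT 2, against 6156 and 6058 in cKO 1 and cKO 2, and means of 73.4 ± 5.59 CPM in WT and 98.2 ± 5.34 CPM in the libraries labelled cKO (SD, n = 2). Its libraries did not overlap between the groups under TMM, upper quartile or library size scaling or in the TPM values. The log2 fold change of 0.42 (SE 0.20, 95% interval -0.079 to 0.92) did not pass the test (adjusted p = 0.637 by edgeR). A total of 510 bases of its exons overlap those of *Gm16754* on the other strand, and the counting is not stated to use strand.

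In the deposited TPM values, which are per transcript length and so allow genes to be compared, *Nfe2l2* stood above *Keap1* in every library. The ratio of *Nfe2l2* to *Keap1* was 2.52 in WT 1, 2.21 in WT 2, 1.81 in cKO 1 and 2.36 in cKO 2. It was lowest in cKO 1, and the groups overlapped.

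The largest difference was in *Gclm*, the modifier subunit of glutamate-cysteine ligase, which makes the first and rate-limiting step of glutathione synthesis, and its size depended on which library was left out. *Gclm*, on chromosome 3 from 122245557 to 122270732, had counts of 2417 and 2248 in WT 1 and WT 2, against 375 and 1680 in cKO 1 and cKO 2. cKO 1 was thus low and cKO 2 stood closer to WT than to its own replicate. The means were 36.1 ± 1.13 CPM in WT and 16.2 ± 14.1 CPM in the libraries labelled cKO (SD, n = 2), a log2 fold change of -1.16 (SE 0.66, 95% interval -2.83 to 0.52) that did not pass the test (adjusted p = 0.688 by edgeR). Without cKO 1 the log2 fold change was -0.46, and without cKO 2 it was -2.56. Of its exon bases, 296 overlap *Gm17494* on the other strand and 244 overlap *Gm6061* on the same strand.

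*Gclc*, the catalytic subunit of the same enzyme, on chromosome 9 from 77754535 to 77794485, had counts of 1234 and 949 in WT 1 and WT 2, against 774 and 1270 in cKO 1 and cKO 2. Its groups overlapped, with the highest and lowest values both in the libraries labelled cKO, and its log2 fold change of -0.050 (SE 0.35, 95% interval -0.94 to 0.84) was close to 0 with a wide interval. In TPM, *Gclc* was the lowest of the 10 genes in mean level, at 10.8 ± 1.57 TPM in WT and 10.4 ± 3.20 TPM in the libraries labelled cKO (SD, n = 2). The ratio of *Gclm* to *Gclc* in TPM was 4.57 and 5.52 in WT, 1.13 in cKO 1 and 3.08 in cKO 2. The modifier subunit's RNA was therefore lower relative to the catalytic subunit's in both libraries labelled cKO than in either WT library, but an exact permutation test of 2 libraries against 2 cannot go below p = 0.333.

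*Gsr*, glutathione reductase, which regenerates glutathione with NADPH, lies on chromosome 8 from 33652523 to 33698163. It had counts of 10173 and 5005 in WT 1 and WT 2, against 3475 and 6861 in cKO 1 and cKO 2. In CPM, WT 1 was 1.98-fold higher than WT 2, and cKO 2 was 1.86-fold higher than cKO 1. The groups overlapped, and the log2 fold change of -0.51 (SE 0.44, 95% interval -1.62 to 0.60) did not pass the test (adjusted p = 0.804 by edgeR). It lay at 0.043 without WT 1, -0.92 without WT 2, -0.13 without cKO 1 and -1.03 without cKO 2.

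The thioredoxin and peroxiredoxin genes split in the same way between replicates or hardly moved. *Txnrd1*, thioredoxin reductase of the cytosol, on chromosome 10 from 82833951 to 82897712, had counts of 7699 and 4704 in WT 1 and WT 2, against 4716 and 9541 in cKO 1 and cKO 2. WT 2 and cKO 1 were low, WT 1 and cKO 2 high, and the groups overlapped. Its log2 fold change of 0.24 (SE 0.39, 95% interval -0.74 to 1.23) turned to -0.051 without WT 2 and -0.31 without cKO 2, and stood at 0.60 without WT 1 and 0.64 without cKO 1. *Srxn1*, sulfiredoxin, which repairs over-oxidised peroxiredoxins, on chromosome 2 from 152105516 to 152111376, had counts of 1825 and 1483 in WT 1 and WT 2, against 1442 and 2479 in cKO 1 and cKO 2. Only cKO 2 stood above both WT libraries, and the log2 fold change of 0.29 (SE 0.33, 95% interval -0.55 to 1.13) turned to -0.11 without it. *Prdx1*, a peroxiredoxin that removes hydrogen peroxide, on chromosome 4 from 116685544 to 116700822, had counts of 29355 and 26590 in WT 1 and WT 2, against 27909 and 25787 in cKO 1 and cKO 2.

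*Prdx1* was the most abundant of the 10 genes in every library, with 686, 658, 711 and 622 TPM in WT 1, WT 2, cKO 1 and cKO 2. Its means were 433 ± 21.7 CPM in WT and 432 ± 42.7 CPM in the libraries labelled cKO (SD, n = 2), and its log2 fold change of -0.0031 (SE 0.16, 95% interval -0.40 to 0.40) had the narrowest interval of the 10. Of the 50-base words of its longest transcript, 10.9% also occur in annotated copies such as *Gm21399*, so part of its count may belong to them.

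The quinone and NADPH enzymes went opposite ways without passing the test. *Nqo1*, a quinone reductase that is widely used as a readout of NRF2, lies on chromosome 8 from 107388225 to 107403206 and had counts of 4260 and 4640 in WT 1 and WT 2, against 2706 and 4176 in cKO 1 and cKO 2. cKO 1 was low and cKO 2 lay at 65.11 CPM beside 65.08 CPM in WT 1, so the groups just overlapped under TMM scaling, while with upper quartile or library size scaling they did not overlap. The log2 fold change of -0.33 (SE 0.27, 95% interval -0.999 to 0.34) had adjusted p = 0.789 by edgeR and lay at -0.081 without cKO 1 and -0.64 without cKO 2. *G6pdx*, glucose-6-phosphate dehydrogenase, which makes NADPH in the pentose phosphate pathway, lies on chromosome X from 74409483 to 74429194. It had counts of 6243 and 7240 in WT 1 and WT 2, against 8742 and 7355 in cKO 1 and cKO 2, a log2 fold change of 0.31 (SE 0.22, 95% interval -0.24 to 0.86) and adjusted p = 0.746 by edgeR. cKO 2 (115 CPM) was barely above WT 2 (114 CPM), and the groups overlapped with upper quartile or library size scaling and in TPM. Its exons overlap those of *Ikbkg* on the other strand by 418 bases, and 7.65% of its 50-base words also occur in *G6pd2*, a copy of the gene.

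**Figure D2:**
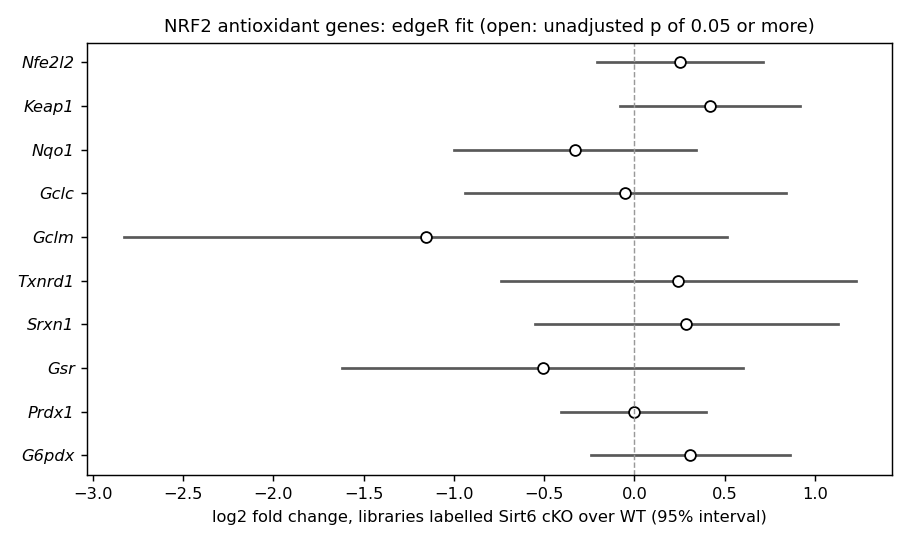
Log2 fold change of the libraries labelled cKO over WT for the 10 genes, with 95% intervals from edgeR's fit to all 4 libraries; open points mark an unadjusted p of 0.05 or more. All 10 intervals cross 0, from the narrow interval of *Prdx1* (-0.40 to 0.40) to that of *Gclm* (-2.83 to 0.52).

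The wider replicate gap, within WT or within the libraries labelled cKO, exceeded the difference between the groups in 8 of the 10 genes (log2 CPM). The exceptions were *Nfe2l2* and *Keap1*. In *Gclm*, *Nqo1* and *G6pdx* only the gap between cKO 1 and cKO 2 exceeded the difference, and the WT gap was smaller. The wider gap exceeded the difference in 71.1% of all genes with a count in every library. With upper quartile scaling it did so in 9 of the 10, all except *Keap1*. With library size alone or in TPM it did so in the same 8. Within the libraries labelled cKO, 7 of the 10 genes were higher in cKO 2 than in cKO 1, beside 49.4% of all genes. The gap was 4.22-fold for *Gclm*, 1.90-fold for *Txnrd1*, 1.86-fold for *Gsr*, 1.62-fold for *Srxn1*, 1.54-fold for *Gclc* and 1.45-fold for *Nqo1*, and 1.08-fold for *Nfe2l2*. The enzyme genes with these gaps are 6 of the 8 enzyme genes, and *Prdx1* and *G6pdx* went the other way. *Nqo1*, *Gclc*, *Gclm* and *Gsr* had their lowest value of all 4 libraries in cKO 1, as had 26.1% of all genes. Between the WT libraries, *Gsr* was 1.98-fold and *Txnrd1* 1.59-fold higher in WT 1.

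**Figure D3:**
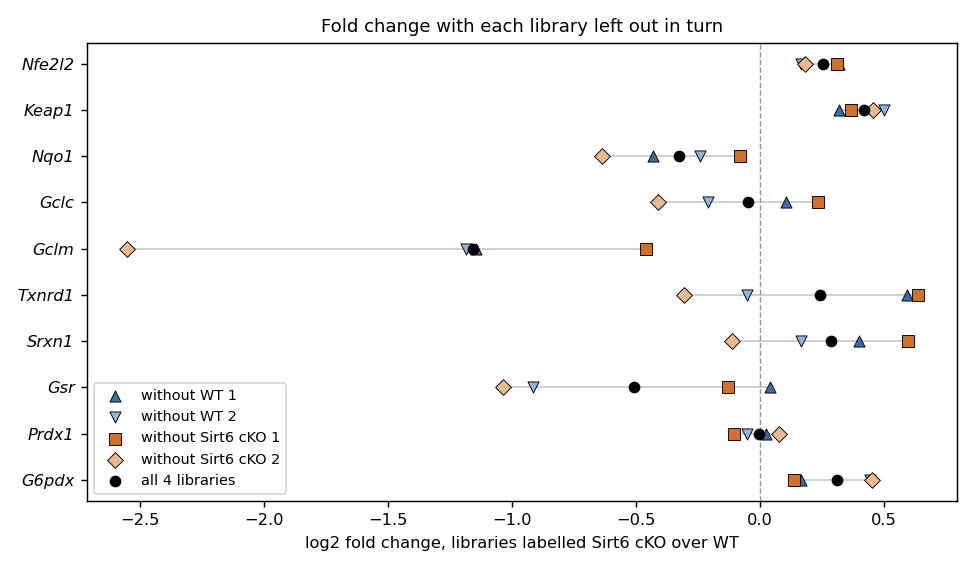
Log2 fold change of the 10 genes with all 4 libraries (black) and with each library left out in turn. *Gclm* ranged from -2.56 without cKO 2 to -0.46 without cKO 1, while *Keap1* stayed between 0.32 and 0.50.

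The patterns over the 4 libraries were compared with those of the 10408 genes tested with a mean of 10 CPM or more, by the Euclidean distance of log2 CPM centred on each gene's mean. Nearest to *Nfe2l2* were *Sar1a* (distance 0.025), *Arntl* (0.036) and *Cul4a* (0.037). Nearest to *Nqo1* were *Zscan21* (0.050), *Slc39a13* (0.051) and *Rcn1* (0.052). The likeness is over 4 libraries only and says nothing of shared function or control.

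The levels themselves can be ordered per length. By the mean TPM over the 4 libraries *Prdx1* (669) came first, followed by *Nfe2l2* (118), *G6pdx* (98.2), *Nqo1* (87.7), *Gsr* (81.6), *Txnrd1* (66.7), *Keap1* (53.9), *Gclm* (39.1), *Srxn1* (24.1) and *Gclc* (10.6). *Prdx1* lay apart from the rest in each library, with its lowest value at 622 TPM and the highest of any other gene at 133 TPM. From *Nfe2l2* down to *Srxn1* the ranges of each gene and the next overlapped. *Nfe2l2* still stood above *G6pdx* within every library, while the order of each other pair of neighbours differed between libraries. *Gclc*, at most 12.7 TPM, lay below *Srxn1*, at least 20.1 TPM, while *Gclm* ran from 54.5 TPM in WT 1 to 9.20 TPM in cKO 1 and in that library stood below *Srxn1* (20.1 TPM) but not below *Gclc* (8.14 TPM).

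Around these genes, 98 other genes of the NRF2 system were examined in 4 lists: 21 partners and regulators of NRF2, 33 other NRF2 targets, 32 genes of glutathione, thioredoxin and peroxide removal, and 12 genes of NADPH supply. All 98 were tested. At the same unadjusted p edgeR found that 18 of the 98 (18.4%) differed, 13 being higher and 5 lower with the cKO label, beside 5.27% higher and 3.32% lower over all genes tested. The lists were chosen with earlier results of these data known, so this share is a description. At an adjusted p of 0.05 edgeR called 0 of the 98. DESeq2 called 15 higher and 7 lower at the unadjusted p, beside 5.8% higher and 4.38% lower over all genes it tested. At the adjusted p it called 3, *Hmox1*, *Sqstm1* and *Txnip*, beside 1.83% of all genes. The balance of directions over all genes depended on scaling, since 61.4% of edgeR's calls were higher with TMM, 48.4% with upper quartile and 46.2% with library size alone, and with both of the latter 11 of the 98 were higher and 8 or 9 lower. The median log2 fold changes of the lists were small: 0.046 for partners and regulators, -0.080 for other targets, -0.24 for glutathione, thioredoxin and peroxide removal and 0.0998 for NADPH supply. The first turned to -0.035 with upper quartile scaling and -0.040 with library size alone, the second to 0.091 without WT 2 and the last to -0.016 without cKO 2.

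**Figure D4:**
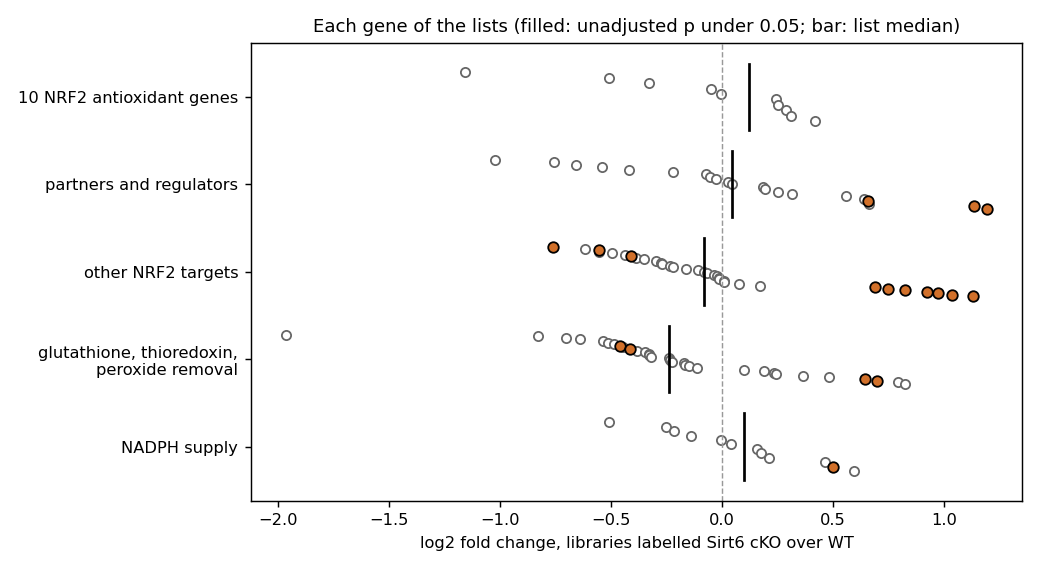
Log2 fold change of each gene in the 10 NRF2 antioxidant genes and the 4 wider lists, with genes at an unadjusted p under 0.05 in edgeR's test filled and the list medians as bars. Filled points occur on both sides of 0 among the other targets (7 higher, 3 lower), and there are none among the 10 genes.

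Among the partners and regulators 3 of 21 (14.3%) were higher and 0 lower at the unadjusted p, which 8.58% of all genes tested passed. *Sqstm1*, which encodes p62, a receptor of selective autophagy that binds KEAP1, had 1168 and 1221 CPM in WT and 1853 and 1916 CPM in the libraries labelled cKO (log2 fold change 0.66, SE 0.13, adjusted p = 0.541 by edgeR). The values in brackets after a gene below are log2 fold changes with their SE. Its exons overlap *Mrnip* on the other strand by 580 bases. *Bach1*, a repressor that competes with NRF2 for the same elements, had 19.1 and 15.9 CPM in WT and 53.7 and 26.4 CPM in the libraries labelled cKO (1.19, SE 0.41). *Nfe2l1*, a relative of NRF2, had 37.8 and 85.1 CPM in WT and 160.4 and 109 CPM in the libraries labelled cKO (1.13, SE 0.44). Both passed the unadjusted p in edgeR and varied widely within a group, but *Nfe2l1* did not pass it with upper quartile scaling (1.05) or library size alone (1.04), and *Bach1* did not in limma on log2(TPM + 1) (1.003) or log2(TPM + 0.1) (1.09). *Cul3* of the KEAP1 ligase did not pass (0.046, SE 0.27, but -0.035 with upper quartile scaling and -0.040 with library size alone), nor did *Mafg*, a small MAF partner (-0.66, SE 0.43).

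Of the 33 other targets, 7 were higher and 3 lower (30.3%, beside 8.58% of all genes tested). *Hmox1*, heme oxygenase, which breaks down heme and is also high in macrophages, was higher with almost no spread between replicates. It had counts of 10218 and 9991 in WT 1 and WT 2, against 17946 and 18975 in cKO 1 and cKO 2, or 157 ± 0.633 CPM in WT and 297 ± 1.06 CPM in the libraries labelled cKO (SD, n = 2). Its log2 fold change of 0.92 (SE 0.16, 95% interval 0.53 to 1.32) had adjusted p = 0.541 by edgeR. The summed macrophage and dendritic cell markers given above, mostly *Lyz2*, were lower in the same libraries, and their part in the result was not tested. *Slc7a11*, the cystine importer that feeds glutathione synthesis, had 23.1 and 35.9 CPM in WT and 73.9 and 47.1 CPM in the libraries labelled cKO (1.04, SE 0.36). *Osgin1*, an oxidative stress response gene, had 41.9 and 34.3 CPM in WT and 59.9 and 74.8 CPM in the libraries labelled cKO (0.82, SE 0.25). The other higher targets were *Aox1*, aldehyde oxidase (0.97, SE 0.37), and 3 exporters of conjugates and drugs, *Abcc1* (0.75, SE 0.23), *Abcc2* (1.13, SE 0.38) and *Abcc5* (0.69, SE 0.23).

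The lower targets were the ferritin chains, which store iron, and 1 glutathione transferase. *Ftl1* had 4386 and 3816 CPM in WT and 2667 and 2921 CPM in the libraries labelled cKO (-0.55, SE 0.14), and *Fth1* had 2151 and 1967 CPM in WT and 1618 and 1486 CPM in the libraries labelled cKO (-0.41, SE 0.14). Macrophages are rich in ferritin. The summed macrophage and dendritic cell markers, mostly *Lyz2*, moved in the same direction, from 5772 and 3349 CPM to 2182 and 2291 CPM. Their part in the result was not tested. *Gsta1* had 40.0 and 52.9 CPM in WT and 26.1 and 28.6 CPM in the libraries labelled cKO (-0.76, SE 0.27). Copies make 2 of these counts uncertain, since 78.9% of the 50-base words of *Ftl1* and 89.7% of those of *Gsta1* occur in other annotated genes. *Txn1*, thioredoxin (-0.012, SE 0.21), and *Gpx2*, a glutathione peroxidase of epithelia (-0.067, SE 0.50), did not pass.

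In the list of glutathione, thioredoxin and peroxide removal, 2 of 32 were higher and 2 lower (12.5%, beside 8.58% of all genes tested). *Txnip*, an inhibitor of thioredoxin, had 253 and 248 CPM in WT and 409.7 and 403 CPM in the libraries labelled cKO (0.70, SE 0.15, adjusted p = 0.541 by edgeR), and the replicates lay close together. Its exons overlap *Gm15441* on the other strand by 606 bases. *Sesn2*, a stress-induced sestrin, had 194 and 229 CPM in WT and 288 and 373 CPM in the libraries labelled cKO (0.65, SE 0.20). *Txn2*, the thioredoxin of mitochondria, had 233 and 209 CPM in WT and 169 and 152 CPM in the libraries labelled cKO (-0.46, SE 0.17), and *Prdx6*, a peroxiredoxin that also repairs lipids, had 242 and 221 CPM in WT and 173 and 174 CPM in the libraries labelled cKO (-0.41, SE 0.16). *Gpx1* (-0.17, SE 0.33), *Cat*, catalase (0.19, SE 0.18), and *Sod2*, the superoxide dismutase of mitochondria (-0.11, SE 0.19), did not pass.

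Of the 12 NADPH genes 1 was higher (8.33%), a share near the 8.58% of all genes tested that passed. *Tkt*, transketolase of the pentose phosphate pathway, had 616 and 598 CPM in WT and 842 and 874 CPM in the libraries labelled cKO (0.50, SE 0.14). *Pgd*, which follows *G6pdx* in that pathway, stood at 0.46, SE 0.22, and its groups did not overlap, but it missed the unadjusted p. *Taldo1*, transaldolase (-0.25, SE 0.15), and *Me1*, malic enzyme (0.16, SE 0.18), did not pass.

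**Figure D5:**
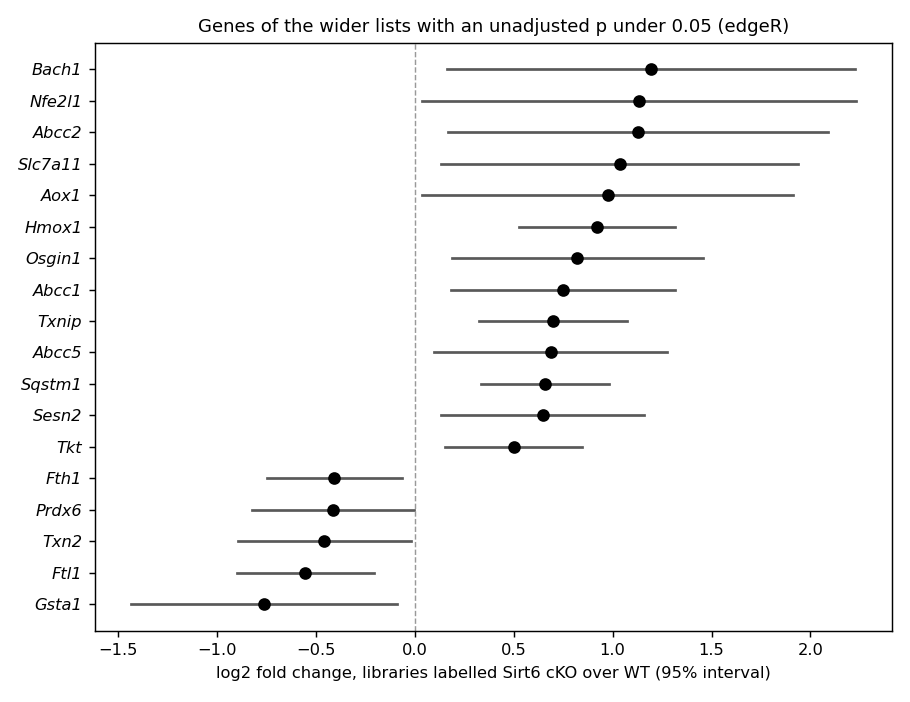
Log2 fold change with its 95% interval for the 18 genes of the wider lists with an unadjusted p under 0.05 in edgeR's test, ordered by size. *Hmox1* (0.53 to 1.32), *Sqstm1* (0.33 to 0.98) and *Txnip* (0.32 to 1.07) have narrow intervals that lie away from 0, while those of *Nfe2l1*, *Aox1* and *Prdx6* almost reach it.

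Many of these calls were lost with only 3 libraries in the fit. The share of calls lost among all genes in these fits is not given here. The losses are therefore not a result particular to these genes. None of the 18 genes changed sign (0 of 18). *Hmox1*, *Sqstm1* and *Txnip* (3 genes) stayed under the unadjusted p in all 12 other settings. Of the other 15, *Bach1* was lost without WT 1 (1.31), WT 2 (1.07) or cKO 1 (0.60), *Nfe2l1* without WT 1 (0.64) or cKO 1 (0.84), and *Slc7a11* without the same libraries (0.72 and 0.68). *Osgin1* was lost without WT 2 (0.69) or cKO 2 (0.64), as was *Tkt* (0.48 and 0.46). *Fth1* was lost without WT 1 (-0.37) or cKO 2 (-0.36), as was *Sesn2* (0.51 and 0.43), and *Abcc1* without WT 1 (0.52) or cKO 1 (0.66). *Gsta1* was lost without WT 2 (-0.54), cKO 1 (-0.70) or cKO 2 (-0.85), as was *Abcc2* (1.02, 1.02 and 1.22). *Abcc5*, *Aox1*, *Txn2* and *Prdx6* (4 genes) were lost whichever library was left out, at folds near those with all 4 libraries: 0.55 to 0.80 for *Abcc5*, 0.76 to 1.15 for *Aox1*, -0.53 to -0.40 for *Txn2* and -0.48 to -0.37 for *Prdx6*. With all 4 libraries, *Aox1* was also lost with upper quartile scaling, library size alone, the filter on TPM and both limma fits, *Slc7a11*, *Abcc2*, *Abcc5* and *Fth1* in both limma fits, and *Prdx6* without the filter on low counts. *Ftl1* kept its call with every library left out and lost it only in limma on log2(TPM + 1).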

How the data were processed

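RNA of mTECs was measured in 4 libraries, 2 in each group. Adapters were removed with Trimgalore, HISAT2 2.1.0 placed the reads on mm10, and StringTie 1.3.3 quantified genes, per the methods and the submitters' processing notes. The annotation and the use of strand are not given in the sources used here. The deposited counts are raw whole numbers, and the authors' TPM values are StringTie output, whose last line, the column total, was dropped. In R 4.3.3, edgeR 4.0.16 tested the counts with TMM scaling (filterByExpr, its count minimum at 10 and its total minimum at 15) and its quasi-likelihood fit, with Benjamini-Hochberg adjustment over all 18547 genes tested. CPM used the TMM factors, and 95% intervals came from the same fit. The biological coefficient of variation was 0.557. The edgeR and DESeq2 fits were tested on simulated counts, and the limma fits and the other steps were not. As alternatives, DESeq2 1.42.0, no filter, the study's filter on TPM (over 0.1), upper quartile scaling, library size alone, a block for the replicate number and limma 3.58.1 on log2(TPM + 1) or log2(TPM + 0.1) were run. Each library was also omitted once, and the lone library left in its group was assumed to vary like the other group.

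The members and lists were chosen with earlier results of these data known. The text names all 10 members, *Sirt6*, 15 genes of the wider lists whatever their values, every list gene with an unadjusted p under 0.05, and the 3 genes nearest in pattern to *Nfe2l2* and *Nqo1*. Other genes are named only as markers, copies or overlapping genes. Positions, exon overlaps and shared 50-base words came from GENCODE M21 on GRCm38, and promoters from RefSeq.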

Additional observations from a re-analysis of the deposited data

How the results depend on the processing

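In all 8 alternatives fitted to the 4 libraries, 0 of the 10 genes passed either threshold and their median log2 fold change lay between 0.034 and 0.12. With a library left out, the number at the unadjusted p was 0 to 1 and the median -0.21 to 0.18. The log2 fold change ranged from -0.41 to 0.23 for *Gclc*, -0.31 to 0.64 for *Txnrd1*, -0.11 to 0.60 for *Srxn1*, -1.03 to 0.043 for *Gsr* and -0.10 to 0.079 for *Prdx1*, and so changed sign; likewise from -0.20 to 0.31 for *Cul3*, -0.060 to 0.023 for *Txn1*, -0.35 to 0.25 for *Gpx2*, -0.40 to 0.0080 for *Gpx1*, -0.29 to 0.032 for *Sod2* and -0.0059 to 0.35 for *Cat*. *Cul3* also changed sign with upper quartile scaling (-0.035) and library size alone (-0.040). Of the 98 other genes 18 passed the unadjusted p, beside 8.58% of all genes tested, and 14 to 22 did in the alternatives fitted to the 4 libraries. The 22 came from DESeq2, where 10.2% of all genes it tested passed. For the other alternatives the share over all genes is not given here. At the adjusted p DESeq2 gave 3, where 1.83% of all genes passed, and the rest gave 0. *Sirt6* stayed above 0 throughout (0.19 to 0.54 with a library left out). The labels do not say whether the replicate numbers pair the samples. The differences between replicates in WT and in the libraries labelled cKO had a correlation of -0.054 across genes, which cannot settle it. With the number as a block, 14 of the 98 and 0 of the 10 genes passed (*Nfe2l1*, *Slc7a11*, *Aox1*, *Txn2* and *Prdx6* no longer did). The median of the 10 was then 0.10, and *Sirt6* stood at 0.38. As alternatives chosen after seeing the data, scaling was also changed for the count of genes without overlap: 1 of 10 was higher with upper quartile scaling, 2 with library size alone and 2 in TPM, and 2, 2 and 1 were lower. The causes of these changes were not tested. The depth behind a member was 375 counts or more in each library.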
